A study of Mus musculus with 6 samples.

Results

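Collagens and the enzymes that modify them were examined in lung metastases of Myc-driven mouse mammary tumours. The genes were chosen by name. They were every gene whose symbol is Col followed by a number, the letter a and a second number, except Col17a1, together with Lox, Loxl1 to Loxl4, Plod1 to Plod3, P4ha1 to P4ha3 and Serpinh1. Of the 12393 genes with a probe set annotated by a single symbol, 45 met this rule, 35 collagens and 10 enzymes or chaperones, with 73 probe sets in all. Each gene was represented by its probe set with the highest mean over the arrays. For Loxl2 and P4ha3, no probe set with a single symbol was in the annotation used here.

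RNA of 6 lung metastasis samples, taken at endpoint and flash frozen, was hybridised to Affymetrix mouse arrays, 1 array per sample. All animals were of the FVB strain and carried MMTV-Myc, in which a promoter active in mammary epithelium drives the Myc oncogene. The KO group held 3 metastases with the genotype Myc E2F2 KO, an E2F2 knockout, and the Het group held 3 metastases with the genotype Myc E2F3 Het, heterozygous for E2F3. Age was not given in the sources used here, metastases with intact E2F genes were not analysed here, and the promoter restricts the transgene and not the E2F alleles. Each KO title has a number of its own, so the KO arrays may come from separate mice. All Het titles share a number that no KO title has, so the Het arrays may come from 1 mouse. They were therefore averaged into 1 sample for the main test. The comparison asks how metastases of these genotypes differ. Nothing in the labels says that the arrays of a group came from separate animals, so p-values apply only to these samples. In the main test, spread within a group comes from the KO samples alone, because the Het arrays enter as 1 mean.

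Collagens are the main structural proteins of the extracellular matrix. Fibrillar collagens I, III and V build the fibres of connective tissue, collagen IV forms the sheet of the basement membrane under epithelium and endothelium, and collagen VI forms beaded filaments around cells. Their chains are hydroxylated on proline and lysine in the endoplasmic reticulum, folded with the help of the chaperone encoded by Serpinh1, secreted, and cross-linked outside the cell by lysyl oxidases. In tumours, fibroblasts make most fibrillar collagen, and a stiff, cross-linked matrix is known to accompany invasion. In bulk tissue, fewer cells of a type and less RNA per cell cannot be told apart.

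Start regions of members on which the results turn are shown first, because these members had large differences between the groups or share a start region. The windows run from 250 bases before to 50 bases after the annotated start and were taken from RefSeq on GRCm38.p6, which had windows for 32 of the 45 members. Capitals mark every match, on either strand, to any of 7 motifs. These were CCAAT (the CCAAT box), GGGCGG (the GC box), ACGTG (found in the core of hypoxia response elements), CACGTG (the E-box that Myc can bind), the E2F-type sites TTTCGCGC and its variant TTTGGCGC, and TATAAA (the TATA box). ACGTG lies within CACGTG, so a match to the longer motif is also a match to the shorter. Col1a2 and Col3a1 encode fibrillar chains. Col9a1 and Col18a1 have 2 annotated starts each. Col4a1 and Col4a2 lie head to head, and Col4a5 was the member whose KO arrays all lay below the Het arrays.
Col1a2, chr6:4505368-4505667, plus strand: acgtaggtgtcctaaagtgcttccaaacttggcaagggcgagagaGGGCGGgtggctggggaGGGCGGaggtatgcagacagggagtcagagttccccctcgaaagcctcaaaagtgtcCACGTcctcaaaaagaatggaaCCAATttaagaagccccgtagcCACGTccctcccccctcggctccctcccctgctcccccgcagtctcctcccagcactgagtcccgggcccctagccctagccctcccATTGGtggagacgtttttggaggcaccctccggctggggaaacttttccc
Col3a1, chr1:45311288-45311587, plus strand: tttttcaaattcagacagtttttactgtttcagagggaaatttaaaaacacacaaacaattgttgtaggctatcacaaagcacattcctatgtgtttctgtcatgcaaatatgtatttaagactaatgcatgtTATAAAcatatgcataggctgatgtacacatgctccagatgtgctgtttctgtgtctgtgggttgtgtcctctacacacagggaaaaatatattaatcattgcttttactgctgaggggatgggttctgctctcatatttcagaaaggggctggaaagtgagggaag
Col9a1, first start, chr1:24177360-24177659, plus strand: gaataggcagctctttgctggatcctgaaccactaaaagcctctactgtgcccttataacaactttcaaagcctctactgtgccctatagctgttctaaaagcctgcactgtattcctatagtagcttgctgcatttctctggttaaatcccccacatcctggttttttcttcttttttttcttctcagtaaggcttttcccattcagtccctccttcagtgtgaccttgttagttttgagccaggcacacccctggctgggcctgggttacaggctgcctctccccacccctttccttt
Col9a1, second start, chr1:24194953-24195252, plus strand: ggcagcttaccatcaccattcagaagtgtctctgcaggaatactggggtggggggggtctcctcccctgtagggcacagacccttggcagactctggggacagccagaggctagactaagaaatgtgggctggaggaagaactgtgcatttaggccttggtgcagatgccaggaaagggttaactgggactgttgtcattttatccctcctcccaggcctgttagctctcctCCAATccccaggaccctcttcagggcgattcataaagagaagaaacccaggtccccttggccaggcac
Col18a1, first start, chr10:77166481-77166780, minus strand: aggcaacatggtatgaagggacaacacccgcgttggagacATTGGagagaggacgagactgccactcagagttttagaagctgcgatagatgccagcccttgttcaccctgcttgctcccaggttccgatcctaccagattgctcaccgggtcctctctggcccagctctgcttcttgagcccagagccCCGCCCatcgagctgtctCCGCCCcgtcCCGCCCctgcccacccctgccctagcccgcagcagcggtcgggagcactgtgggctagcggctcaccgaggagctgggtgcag
Col18a1, second start, chr10:77113656-77113955, minus strand: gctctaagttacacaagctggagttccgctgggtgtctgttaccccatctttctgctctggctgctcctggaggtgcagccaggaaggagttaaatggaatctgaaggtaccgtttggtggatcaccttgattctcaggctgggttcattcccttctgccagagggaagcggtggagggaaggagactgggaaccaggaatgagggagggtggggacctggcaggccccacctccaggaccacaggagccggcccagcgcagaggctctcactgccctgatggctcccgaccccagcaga
Col4a1, chr8:11312777-11313076, minus strand: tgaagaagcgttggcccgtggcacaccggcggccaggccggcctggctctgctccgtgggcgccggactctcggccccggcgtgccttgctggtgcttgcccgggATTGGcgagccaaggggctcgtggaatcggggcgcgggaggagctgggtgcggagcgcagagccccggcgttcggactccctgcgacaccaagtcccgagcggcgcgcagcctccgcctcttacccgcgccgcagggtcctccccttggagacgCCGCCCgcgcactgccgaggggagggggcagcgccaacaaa
Col4a2, chr8:11312555-11312854, plus strand: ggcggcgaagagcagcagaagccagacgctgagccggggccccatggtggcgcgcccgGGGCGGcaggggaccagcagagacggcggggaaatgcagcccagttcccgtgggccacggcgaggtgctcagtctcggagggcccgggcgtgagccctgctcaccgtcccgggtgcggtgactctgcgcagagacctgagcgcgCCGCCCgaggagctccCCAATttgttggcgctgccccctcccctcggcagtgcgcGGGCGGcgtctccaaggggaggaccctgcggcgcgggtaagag
Col4a5, chrX:141475169-141475468, plus strand: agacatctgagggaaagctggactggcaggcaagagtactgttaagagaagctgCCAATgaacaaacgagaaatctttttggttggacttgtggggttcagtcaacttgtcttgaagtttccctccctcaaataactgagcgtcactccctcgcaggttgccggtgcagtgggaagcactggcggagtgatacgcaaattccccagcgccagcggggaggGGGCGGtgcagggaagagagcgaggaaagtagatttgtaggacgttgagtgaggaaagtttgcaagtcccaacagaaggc

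The starts of Col4a1 and Col4a2 were 21 bases apart on opposite strands, and their windows shared 78 bases. The starts of Col4a5 and Col4a6, also divergent, were 1343 bases apart. A GC box was in 22 of the 35 windows of members (62.9%), beside 35.7% of all 32851 windows of the same length. CCAAT was in 12 windows (34.3%, beside 37.4% of all), ACGTG in 8 (22.9%, beside 19.6%) and TATAAA in 6 (17.1%, beside 13.6%). The E-box CACGTG was in 0 of the 35 windows, beside 7.15% of all, and both E2F-type sites were in 0, beside 0.323% for TTTCGCGC and 0.514% for TTTGGCGC. These matches describe letters in a short window and do not show binding.

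Values were the authors' linear signals, scaled so that each array had the same trimmed mean, and were analysed as log2(signal + 16). All differences below are KO minus Het on this scale, which understates the change of dim genes. Probe sets in the dimmest 40% by mean log2 value over all 6 arrays were left out, which kept 13575 probe sets and 29 of the 45 members, 20 collagens and 9 enzymes or chaperones. The annotation used here named no probe set E2f2, and the knockout was therefore not checked, and E2f3 had signals of 91.6, 91.4 and 138 in KO and 87.2, 144 and 73 in Het metastases. On Het replicate 1, titled LM2, the ratio of 3' to 5' signal was 2.38 for actin and 11.8 for the transferrin receptor, against 1.48 to 1.73 and 3.25 to 5.15 on the other arrays. The number of arrays limits the precision of every value. For a single value, the smallest two-sided p that an exact permutation of 3 and 3 arrays can give is 0.1.

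Most collagens that could be measured were more abundant in the KO than in the Het metastases, while the modifying enzymes had differences on both sides of 0. None of these differences passed the test. Of the 29 members kept, 22 had a difference above 0 (75.9%), beside 47.6% of all probe sets kept. Every KO array lay above every Het array for 10 members (34.5%), beside 7.82% of all probe sets kept, and every KO array lay below every Het array for 1 member (3.45%), beside 8.91%. The 10 were Col18a1, Col9a1, Col1a1, Col6a3, Col5a1, Col1a2, Col6a1, Plod1, Col3a1 and Col15a1, and the 1 was Col4a5. The median difference was 0.44 over the members kept, 0.57 over the 20 collagens and 0.06 over the 9 enzymes and chaperones, beside -0.02 over all probe sets kept. With the dimmest 60% of probe sets left out, the median over the 21 members that remain was 0.26.

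**Figure D1:**
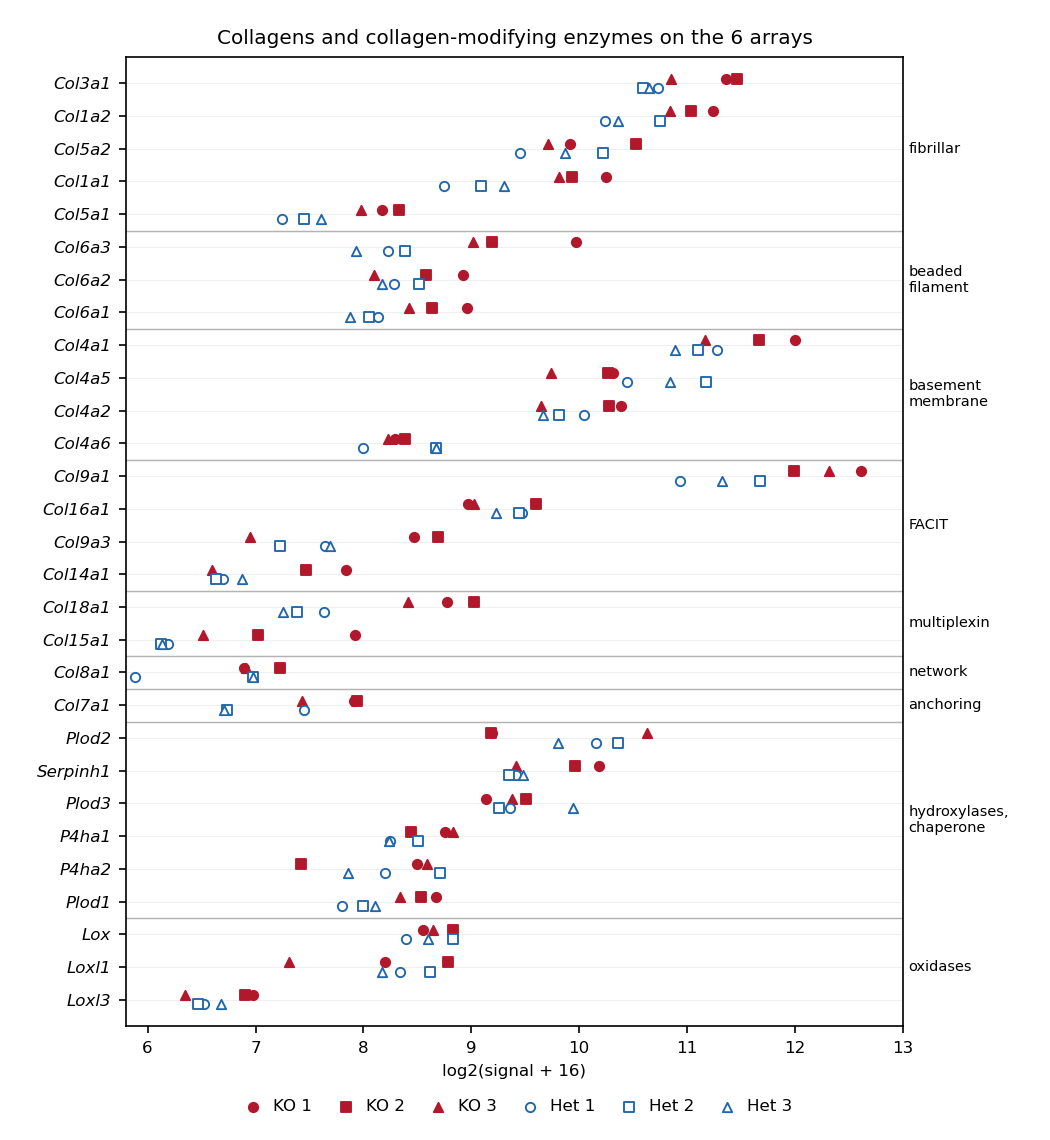
Level of each of the 29 members kept on each array, as log2(signal + 16) on the horizontal axis; filled red symbols are KO arrays, open blue symbols Het arrays, and the symbol shape is the replicate. Grey lines separate the classes, and for 10 members, such as Col18a1, Col9a1 and Col1a1, all red symbols lie to the right of all blue ones.

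When limma set the KO samples against the mean Het sample, 0 of the 29 members had an adjusted p under 0.05 (lowest 0.9999), beside 0% of the 13575 probe sets. With each array as a sample, 0 of 29 passed as well (lowest limma adjusted p = 0.274, for Col18a1), again beside 0% of all. An unadjusted p under 0.05 was reached by 5 members with the averaged Het sample, beside 2.22% of all probe sets, and by 13 with each array as a sample, beside 10.3%. These unadjusted counts are not calls.

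**Figure D2:**
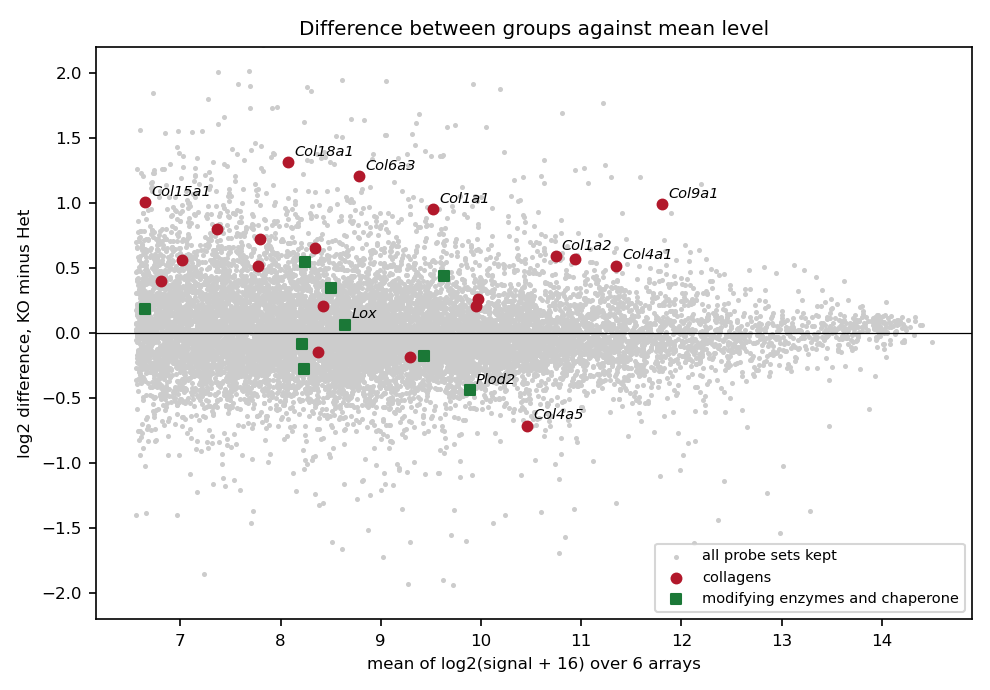
Log2 difference of KO minus Het against the mean of log2(signal + 16) over the 6 arrays, for all probe sets kept (grey), collagens (red circles) and modifying enzymes and the chaperone (green squares). Collagens spread from -0.71 for Col4a5 to 1.32 for Col18a1, with most above the line at 0, and 10 grey probe sets lie beyond the axis.

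Markers of other cell types varied between the arrays on which the collagens were measured. Markers of fibroblasts other than collagens, 10 genes of which 6 were kept, had a summed signal of 3082, 2399 and 1286 on KO replicates 1, 2 and 3 and of 2087, 1582 and 1669 on the Het replicates. The 10 endothelial markers summed to 4246, 3309 and 1730 in KO and to 3317, 1949 and 2002 in Het metastases. For alveolar type 2 cells of the lung, the 6 markers on the array summed to 52033, 28576 and 9510 in KO and to 25484, 15957 and 18838 in Het metastases. KO replicate 1 was thus highest and KO replicate 3 lowest in all 3 marker sums. Of the markers kept, 5 of 6 for fibroblasts, 9 of 10 for endothelium and 5 of 6 for alveolar type 2 cells were above 0. Their median differences were 0.34, 0.30 and 0.49, and without KO replicate 1 they were 0.11, -0.0009 and -0.30. Arrays did not overlap for 2 of the 6 fibroblast markers, both above, and for 0 of the endothelial and alveolar type 2 markers, beside 7.82% of all probe sets kept. No marker was listed at 0 on average, with the lowest mean signal of 43.3 for fibroblast, 94.4 for endothelial and 605 for alveolar type 2 markers. Markers listed for mammary epithelium were present, with 8 of 8 kept and sums of 42362 to 46460 in KO and 43358 to 50218 in Het metastases. Whether these epithelial genes were limited to tumour cells was not tested, so their sums do not measure tumour content. Macrophage markers, with 5 of 6 kept, summed to 4577 to 6627 in KO and 6664 to 7066 in Het metastases. Airway markers, with 3 of 4 kept, summed to 6162 to 23412 and to 17228 to 21907, and basal epithelial markers, with 4 of 4 kept, to 716 on KO replicate 1, 3540 to 4623 on the other KO arrays and 1966 to 6398 in Het metastases. Smooth muscle and pericyte markers, with 5 of 8 kept, summed to 4465, 3586 and 1893 in KO and to 2251 to 2750 in Het metastases, alveolar type 1 markers, with 5 of 6 kept, to 13735, 10428 and 4305 in KO and to 4486 to 7139 in Het metastases, and mesothelial markers, with 1 of 4 kept, to 145 to 246 and to 121 to 282. Above 0 were 5 of 5 alveolar type 1, 3 of 5 smooth muscle and pericyte and 5 of 8 mammary epithelial markers kept. For macrophage, airway and basal epithelial markers, it was 2 of 5, 0 of 3 and 0 of 4. What part any of these cells had in the collagen values was not tested.

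The members followed this order of KO arrays in part. Of the 29 members, 13 were highest on KO replicate 1 and 10 on KO replicate 2, beside 20.9% and 14.9% of all probe sets kept. On KO replicate 3, 7 were lowest, near the share of 20.7% over all probe sets kept. More members, 9, were lowest on Het replicate 1 (beside 15.8%), and 6 on Het replicate 3 (beside 9.33%). Relative to the Het mean, the median member stood at 0.71 on KO replicate 1, 0.57 on KO replicate 2 and 0.20 on KO replicate 3. Fibroblast, endothelial and alveolar type 2 markers summed lowest of all 6 arrays on KO replicate 3. There, 12 of the 29 members lay above every Het array, beside 27.0% of all probe sets kept. Another 8 of the 29 lay below every Het array, near the share of 31.2% over all probe sets kept. With an array left out, fewer arrays have to separate, so the share over all probe sets is larger too. Without KO replicate 1, 10 members lay higher without overlap (34.5%), beside 12.9% of all probe sets kept, and the median difference was 0.30. Without KO replicate 3, it was 18 members (62.1%), beside 17.7%, and the median was 0.64.

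**Figure D3:**
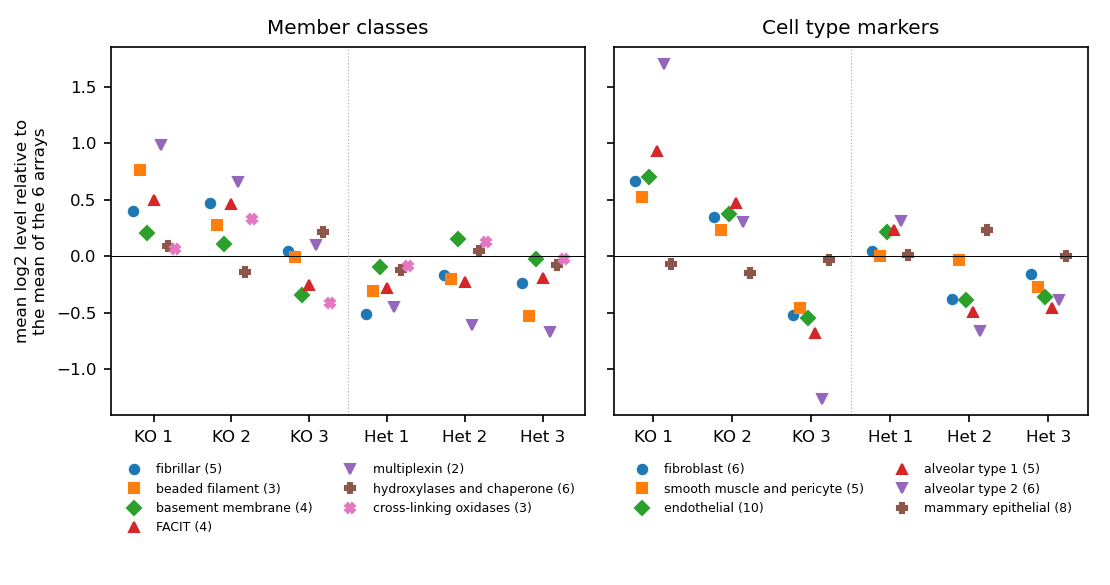
Mean log2 level of each class of members (left) and of each list of cell type markers (right) on the 6 arrays, as a deviation from the gene's average over the 6 arrays; the number of genes kept is in parentheses. Multiplexins, beaded filament and fibrillar collagens lie above 0 or within 0.05 of it on the KO arrays and below 0 on the Het arrays. Other classes lie below 0 on KO replicate 3, with FACIT at -0.25, basement membrane at -0.34 and oxidases at -0.41, while the hydroxylases and chaperone are at 0.21. The markers of fibroblast, endothelial and alveolar cells span from their highest to their lowest values within the KO group.

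Fibrillar collagens were higher on average in KO metastases in 5 of the 5 members kept, with a median difference of 0.59. Arrays did not overlap for 4 of them, beside 7.82% of all probe sets kept. Col1a1, the main chain of collagen I, had signals of 1202, 962 and 885 in KO replicates 1, 2 and 3 and of 413, 529 and 617 in Het replicates 1, 2 and 3. The lowest KO array was thus above the highest Het array. Its difference was 0.95 (SE 0.27), a ratio of 1.94. Col1a2, the partner chain of collagen I, had 2408, 2080 and 1822 in KO and 1190, 1706 and 1296 in Het metastases, a difference of 0.59 (SE 0.24). Here the gap between the groups was small, with Het replicate 2 just under KO replicate 3, and the Col1a2 difference was 0.39 without KO replicate 1 and Het replicate 1 together.

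Col3a1, the chain of the collagen III of soft tissue, had 2620, 2812 and 1836 in KO and 1680, 1528 and 1591 in Het metastases, a difference of 0.57 (SE 0.30). The Het arrays lay close together, and KO replicate 3 was the KO array nearest to them. Col5a1, a chain of the collagen V that starts fibrils, had 272, 305 and 236 in KO and 136, 159 and 179 in Het metastases, a difference of 0.72 (SE 0.27). Its partner chain Col5a2 had 951, 1459 and 819.9 in KO and 685, 1177 and 917 in Het metastases, so its arrays overlapped (0.20, SE 0.37). The fibrillar class was lowest among KO arrays on replicate 3, as the fibroblast markers were. It was at 0.40, 0.47 and 0.05 on KO replicates 1, 2 and 3 relative to the mean of all arrays. The fibroblast markers were at 0.67, 0.35 and -0.52. The order differed on Het replicates 1, 2 and 3, with -0.51, -0.17 and -0.23 for the fibrillar class and 0.04, -0.38 and -0.16 for the fibroblast markers.

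Beaded filament collagens and multiplexins were higher on average in 5 of 5 members kept. Arrays did not overlap for 4, beside 7.82% of all probe sets kept. Col6a3, a chain of collagen VI, had signals of 989, 569 and 499.9 in KO and 284, 317 and 228 in Het metastases. All KO arrays were above all Het arrays, and KO replicate 1 stood well above the other KO arrays. The difference was 1.21 (SE 0.42), and it was 0.92 without KO replicate 1. Col6a1 had 483, 381 and 328 in KO and 265, 249.9 and 219 in Het metastases (0.65, SE 0.30), also without overlap. Col6a2 overlapped, with 469, 366 and 258 in KO and 295, 349 and 272 in Het metastases (0.21, SE 0.37).

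Col18a1, a basement membrane collagen whose cleaved end is known as endostatin, had the largest moderated t of all members. Its signals were 422, 505 and 325 in KO and 182, 151 and 137 in Het metastases. The groups were well apart on every array, including KO replicate 3, which lay 0.99 above the Het mean. The difference was 1.32 (SE 0.32), a ratio of 2.49, and it ran from 1.17 to 1.48 when any 1 array was left out. Col15a1, the related multiplexin of vessel and muscle basement membranes, had 227, 114 and 75.2 in KO and 57.1, 53.7 and 54.0 in Het metastases. Its Het arrays were nearly equal while its KO arrays spread widely, so the difference of 1.005 had an SE of 0.58 and was 0.62 without KO replicate 1. Its KO order was that of the endothelial markers, at 0.70, 0.37 and -0.55 on KO replicates 1, 2 and 3 relative to the mean of all arrays. The fibroblast, smooth muscle and pericyte, and alveolar marker lists had the same KO order. On Het replicates 1, 2 and 3 the endothelial markers were at 0.22, -0.38 and -0.36, where Col15a1 was nearly flat. The cell source of Col15a1 was not tested.

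Col7a1, the anchoring fibril collagen that ties epithelium to stroma, had 225, 230.4 and 157 in KO and 159, 90.8 and 88.2 in Het metastases (0.80, SE 0.33). KO replicate 3 was just under Het replicate 1, and the other arrays did not overlap. Without Het replicate 1 the difference was 1.04. Col8a1, a short-chain network collagen, had 103, 134 and 105 in KO and 43.1, 110.0 and 109.7 in Het metastases (0.40, SE 0.33). Only Het replicate 1 was low, and without it the difference was 0.04.

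Collagen IV genes lay on both sides of 0. Of the 4 kept, 2 were above 0 and 2 below, with a median of 0.06 that ran from -0.01 without KO replicate 1 to 0.19 without KO replicate 3. Col4a1, a chain of the collagen IV found in nearly all basement membranes, had signals of 4074, 3232 and 2280 in KO and 2467, 2186 and 1884 in Het metastases (0.52, SE 0.34). Col4a2, its partner from the shared start region shown above, had 1323, 1222 and 787 in KO and 1037, 883 and 798 in Het metastases (0.26, SE 0.35). Both genes ranked the arrays of each group alike, and the arrays of KO and Het overlapped for both. Without KO replicate 1, the differences were 0.32 for Col4a1 and 0.12 for Col4a2, and without KO replicate 3 they were 0.74 and 0.49.

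Col4a5, a chain of a collagen IV of specialised basement membranes, had the opposite direction. Its signals were 1254, 1218 and 840.0 in KO and 1378, 2289 and 1815 in Het metastases. Every KO array was below every Het array, with KO replicate 1 and Het replicate 1 close to each other. The difference was -0.71 (SE 0.30), and it was -0.90 without Het replicate 1. Its divergent neighbour Col4a6 overlapped on its brightest probe set, with 298, 318 and 284 in KO and 239, 391 and 393 in Het metastases (-0.14, SE 0.24). The other probe set of Col4a6 had 237, 211 and 190.5 in KO and 269.7, 416 and 298 in Het metastases, without overlap (-0.57).

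Among the 4 collagens kept that attach to fibrils (the FACIT class), 3 were above 0. Col9a1 was the 1 without overlap, beside 7.82% of all probe sets kept. The median of the FACIT class was 0.54. It became 0.30 with KO replicate 1 left out, 0.34 with KO replicate 2 left out and 0.95 with KO replicate 3 left out. Col9a1, a chain of the collagen IX of cartilage, had signals of 6224, 4054 and 5082 in KO and 1940, 3260 and 2539 in Het metastases. The groups did not overlap, and KO replicate 3 lay 1.01 above the Het mean. The difference was 0.99 (SE 0.27), and it ran from 0.81 without Het replicate 1 to 1.18 without Het replicate 2. Without KO replicate 1 and Het replicate 1 together it was 0.65. A dimmer Col9a1 probe set, with 1676, 845 and 1349 in KO and 346, 674 and 449 in Het metastases, gave 1.37 and ranked the 6 arrays in the same order. Of 5 cartilage markers, 4 were below the filter, with mean signals of 23.1 for Acan, 27.6 for Comp, 10.6 for Matn1 and 15.0 for Matn3. The 1 kept was Sox9, a transcription factor of cartilage and of several epithelia, with 176, 165 and 233 in KO and 313, 203 and 291 in Het metastases (-0.45, SE 0.30), opposite in sign to Col9a1 and with overlap. Col2a1, the main cartilage collagen, had 26.6, 28.99 and 1.97 in KO and 2.72, 4.23 and 9.08 in Het metastases.

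The partner chains of collagen IX did not show this pattern. Col9a3 had 338, 398 and 108 in KO and 184, 134 and 191 in Het metastases (0.52, SE 0.70), so KO replicate 3 was the lowest of all arrays. Without KO replicate 3 the Col9a3 difference was 1.06, and without KO replicate 2 it was 0.19. Col9a2 was below the filter, with 89.0, 24.1 and 12.7 in KO and 27.9, 2.44 and 2.14 in Het metastases. Col14a1, a fibril-surface collagen of connective tissue, had 214, 161 and 80.9 in KO and 88.1, 83.4 and 102 in Het metastases (0.56, SE 0.53). KO replicate 3 was again lowest, as in the fibroblast, endothelial and alveolar type 2 markers. Leaving out KO replicate 1 gave 0.29 for Col14a1, while leaving out KO replicate 3 gave 0.92. Col16a1 overlapped as well, with 484, 759 and 505 in KO and 695, 681 and 582 in Het metastases (-0.19, SE 0.33).

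**Figure D4:**
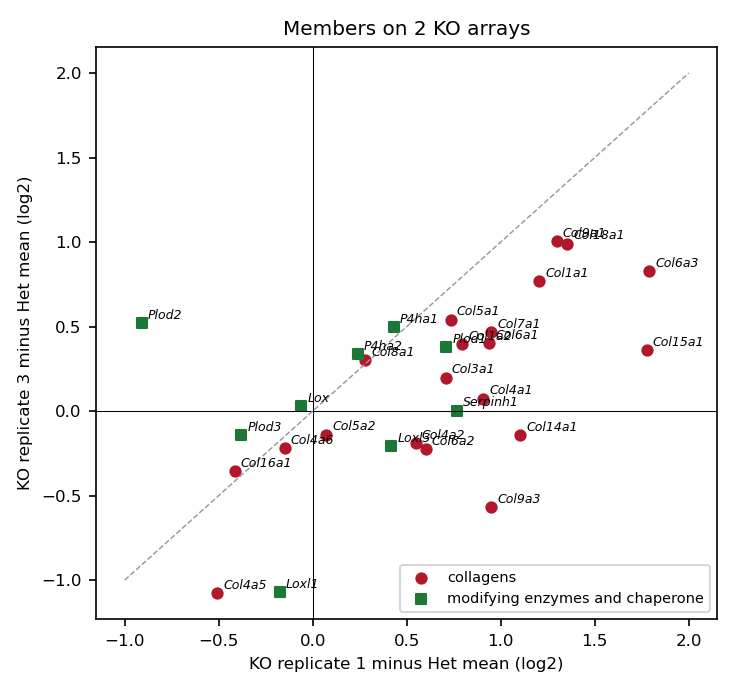
Log2 level of each of the 29 members kept on KO replicate 1 (horizontal) and KO replicate 3 (vertical), each relative to the mean of the 3 Het arrays; the dashed line marks equal values. Col9a1 and Col18a1 stand near 1 on KO replicate 3 and above 1 on KO replicate 1, Col9a3 and Col14a1 are above 0 on KO replicate 1 and below 0 on KO replicate 3, and Plod2 has the reverse.

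The hydroxylases and the chaperone lay on both sides of 0. Of 6 kept, 3 were above 0 and 3 below, with a median difference of 0.13 that ran from 0.04 without KO replicate 3 to 0.34 without KO replicate 2. Plod1, a lysyl hydroxylase of the collagen helix, was the 1 of 6 whose arrays did not overlap, beside 7.82% of all probe sets kept. Its signals were 393, 354 and 309 in KO and 207, 239 and 259 in Het metastases (0.55, SE 0.26). Plod2, which hydroxylates the lysines of the collagen ends that take part in cross-links, had 571, 564 and 1564 in KO and 1121, 1297 and 877 in Het metastases (-0.44, SE 0.62). KO replicate 3 was the highest and the other KO arrays the lowest of the 6. Leaving out KO replicate 1 gave -0.20 for Plod2, leaving out KO replicate 2 gave -0.19, and leaving out KO replicate 3 gave -0.92. Plod3, a lysyl hydroxylase that also adds sugars to collagen, overlapped (-0.18, SE 0.26).

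P4ha1, a catalytic subunit of the prolyl hydroxylase that stabilises the helix, had 417, 333 and 438 in KO and 287, 348 and 285 in Het metastases (0.35, SE 0.27), with KO replicate 2 inside the Het range. Its dimmer probe set did not overlap, with 147, 118 and 217 in KO and 60.9, 117 and 95.3 in Het metastases (0.72). P4ha2, the other subunit gene kept, had 345, 155 and 369 in KO and 278, 402 and 216 in Het metastases (-0.09, SE 0.51), and KO replicate 2 was its lowest array. Serpinh1, the collagen chaperone, had 1144, 978 and 667 in KO and 664, 635 and 699.7 in Het metastases (0.44, SE 0.35). KO replicates 1 and 2 were above all Het arrays and KO replicate 3 was within their range. Both probe sets of Serpinh1 gave 0.44, and the difference was 0.27 when KO replicate 1 was left out and 0.66 when KO replicate 3 was.

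Lysyl oxidases, which cross-link secreted collagen, showed no separation of the groups in any of the 3 kept, with a median difference of 0.06 that ran from -0.04 to 0.14 when 1 array was left out. Lox had 358, 440.5 and 383 in KO and 322, 439 and 372 in Het metastases (0.06, SE 0.25), and its ranges nearly coincided. The sign of the Lox difference was negative with the mean of its probe sets (-0.084), when KO replicate 2 was left out (-0.016) and when Het replicate 1 was left out (-0.041). Loxl1, which also acts on elastin, had 278, 426 and 142 in KO and 308, 376 and 273 in Het metastases (-0.28, SE 0.57), with KO replicate 3 lowest. Loxl3, the faintest member kept, had 109.9, 103 and 65.6 in KO and 76.2, 72.4 and 86.5 in Het metastases (0.18, SE 0.40).

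The 16 members below the filter, 15 collagens and Loxl4, had mean signals from 9.65 to 81.2 and entered no test. The filter was at a mean log2 value of 6.56, with Loxl3 just above it at 6.65 and Col12a1, a fibril-surface collagen, just below it at 6.47. Col11a1, a minor fibrillar collagen known from tumour fibroblasts, had the highest mean signal of the 16 and a mean log2 value of 6.26. It had 189, 164 and 51.4 in KO and 23.7, 24.4 and 34.7 in Het metastases, a difference of 1.64 without overlap, and its dimmer probe set gave 1.34, also without overlap. The other 15 overlapped. They were Col4a3, Col4a4, Col5a3, Col11a2, Col12a1, Col13a1, Col2a1, Col9a2, Col10a1, Col19a1, Col20a1, Col22a1, Col25a1, Col26a1 and Loxl4, with differences from -0.64 for Col22a1 to 1.01 for Col9a2. Col13a1, the brightest transmembrane collagen, had 76.9, 78.0 and 30.4 in KO and 120, 41.4 and 45.9 in Het metastases (-0.08). Col26a1, a collagen outside the other classes, had 10.7, 4.24 and 12.5 in KO and 2.40, 21.9 and 22.4 in Het metastases (-0.27). Without detection calls, it is not known whether these dim probe sets were above background.

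Of the 45 members, 24 had more than 1 probe set, and 23 of their 28 further probe sets had a difference of the same sign as the brightest. Among the 16 further probe sets above the filter, 15 had the same sign, and the exception was Lox, at -0.03. The sizes differed for some genes. The dimmer Col1a1 probe set had 374, 290.1 and 225 in KO and 188, 316 and 248 in Het metastases, which overlapped (0.23, beside 0.95). The dimmer Col3a1 probe set also overlapped (0.48, beside 0.57). For Col5a1, the further probe set above the filter gave 0.29 beside 0.72, without overlap. Col6a2 went the other way, with 0.44 and no overlap on its dimmer probe set, beside 0.21. Col18a1 gave 1.35 beside 1.32 and did not overlap on either probe set, and Col1a2 gave 0.68 beside 0.59, again without overlap on either. The dimmer Col4a5 probe set gave -0.61 beside -0.71, with overlap.

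**Figure D5:**
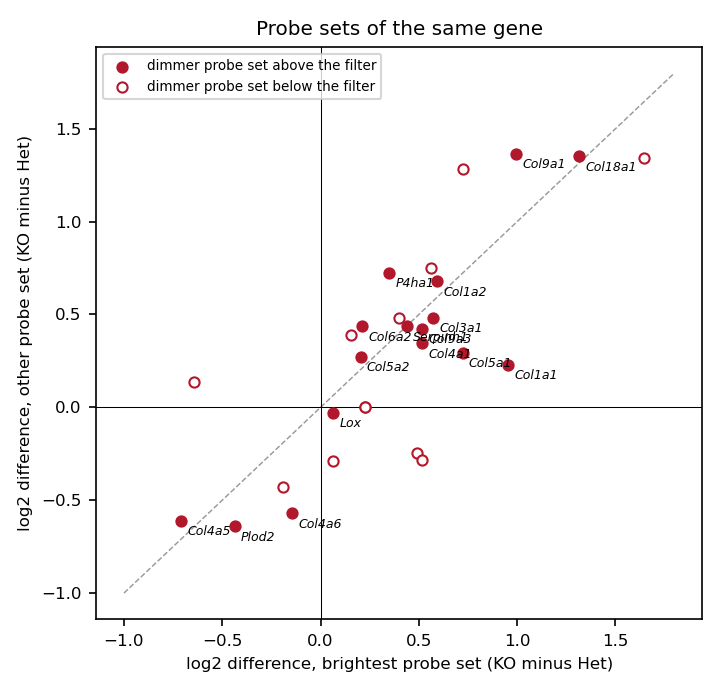
Log2 difference of KO minus Het on the brightest probe set of a gene (horizontal) against its other probe sets (vertical); filled points are above the filter on dim probe sets, open points below it, and the dashed line marks equal values. Col18a1, Col9a1 and Col1a2 lie at 0.68 or more on the vertical axis, whereas Col1a1 lies at 0.23.

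Genes that act with collagens were described from fixed lists. In collagen processing and secretion, 9 of 13 genes kept were above 0 and 4 below, with a median of 0.17 that was 0.07 when KO replicate 1 was left out. Without overlap were 1 above and 2 below, beside 7.82% and 8.91% of all probe sets kept, and 0 passed the test. Mia3, which helps load bulky collagen into transport carriers, had 709.5, 693 and 705 in KO and 776, 1122 and 1113 in Het metastases (-0.48, SE 0.22). All its KO arrays were below its Het arrays. Ppib, a prolyl isomerase of collagen folding, had 6078, 5951 and 5764 in KO and 5358, 5057 and 4814 in Het metastases (0.23, SE 0.15), and Bmp1, which trims procollagen ends, was at 0.78 (SE 0.48) with overlap.

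Fibril-associated matrix proteins were above 0 in 9 of 10 genes kept (median 0.30), and 0 passed the test. Their arrays did not overlap for 2, both above, beside 7.82% of all probe sets kept. With 1 array left out, their median ran from 0.11 without KO replicate 2, over 0.15 without KO replicate 1, to 0.57 without KO replicate 3. Dcn, which encodes the fibril-binding proteoglycan decorin and is also a fibroblast marker, had 618, 391 and 296 in KO and 233, 178 and 229 in Het metastases (0.92, SE 0.43). The arrays of Dcn did not overlap. Its KO order was that of the fibroblast list, which includes Dcn itself, and also of the endothelial and alveolar lists. Tnc, the matrix protein tenascin C, had 747, 907 and 1876 in KO and 633, 599 and 513 in Het metastases (0.89, SE 0.53), so its highest array was KO replicate 3. Among partners of collagen IV in the basement membrane, 8 of 11 kept were above 0 (median 0.31, but 0.04 without KO replicate 1 and 0.53 without KO replicate 3). Of the 11, 2 were above without overlap, beside 7.82% of all probe sets kept. These were Fbln2 at 0.60 (SE 0.29) and Fbln1 at 0.66 (SE 0.36). Genes of collagen breakdown were above 0 in 7 of 10 kept (median 0.21). That median was 0.10 without KO replicate 1, 0.09 without Het replicate 2, 0.12 without Het replicate 3 and 0.37 without Het replicate 1. Mmp14, a membrane-bound collagenase, had 405, 614 and 414 in KO and 356, 324 and 345 in Het metastases (0.44, SE 0.32), and the macrophage elastase Mmp12 was at -0.88 (SE 0.68). In these 2 lists, 0 genes passed the test.

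Collagen receptors were kept for 3 genes, and the arrays did not overlap for 2 above and 1 below, beside 7.82% and 8.91% of all probe sets kept. None passed the test. Itgb1, the integrin chain shared by collagen receptors, had 1246, 1382 and 1472 in KO and 846, 1048 and 939.5 in Het metastases (0.53, SE 0.22). Cd44, a cell surface receptor for hyaluronan that also binds collagen, had 2419, 2902 and 1735 in KO and 1340, 1360 and 1337 in Het metastases (0.77, SE 0.32), whereas Ddr1, a collagen-binding kinase of epithelium, was lower on every KO array (-0.26, SE 0.22). The TGF-beta pathway, known to drive collagen genes in fibroblasts, had 7 of 17 genes above 0 and 10 below (median -0.11), with 0 past the test. The sign of that median was not stable, from -0.23 without KO replicate 1 to 0.05 without KO replicate 3. Of the 17, arrays did not overlap for 2 above and 2 below, beside 7.82% and 8.91% of all probe sets kept. The 2 below were the ligand Tgfb3, with 847, 1348 and 658 in KO and 1725, 1906 and 2284 in Het metastases (-1.09, SE 0.42), and Smad4 (-0.35, SE 0.22). The 2 above were the target Ccn2 at 0.56 (SE 0.26) and the inhibitor Smad7 at 0.55 (SE 0.30). Of 13 hypoxia response genes kept, 3 were above 0 and 10 below (median -0.17, from -0.42 without KO replicate 3 to -0.01 without KO replicate 2), with 0 past the test. That list was at 0.33 on KO replicate 3 and at -0.21 and -0.36 on KO replicates 1 and 2 relative to the mean of all arrays. It was nearly as high on Het replicate 2, at 0.32, and at -0.05 and -0.03 on Het replicates 1 and 3. Plod2, a known hypoxia target, was highest on KO replicate 3. Whether hypoxia had a part in any member's values was not tested.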

How the data were processed

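RNA of 6 lung metastases was measured on Affymetrix mouse arrays. The values are intensities, linear signals deposited by the authors in 1 column per sample. MAS5 and Affymetrix Expression Console are named in the submitters' processing notes, with versions not given in the sources used here. Every array had a trimmed mean of 500.2 in the deposited intensities. Of 22690 probe sets, 64 were controls, 20380 had 1 gene symbol in the platform annotation, 691 several and 1555 none. All 45 members matched a RefSeq gene of GRCm38.p6 by Entrez ID under the same symbol.

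Signals were transformed to log2(signal + 16). Controls and the 40% dimmest probe sets were left out. KO samples (n = 3) were compared with the mean of the 3 Het arrays by limma 3.58.1 in R 4.3.3 (lmFit, eBayes with trend), adjusted by Benjamini-Hochberg over 13575 probe sets, with a threshold of 0.05. SE is that of this fit, in which the lone Het sample is assumed to vary like the KO samples. The fit was tested on simulated data. Replicates were numbered in accession order, so Het replicate 1 is titled LM2.

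The members and the gene lists were chosen with earlier results of these data known. Given with values were the 20 members with the largest moderated t, the highest-signal member of each class and up to 3 genes per list, and the rest of the members with 6 values were chosen after their values were seen. Alternatives covered replication, pseudocount, scaling, filter, probe set choice and each array left out. Protein features were not analysed here.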

Additional observations from a re-analysis of the deposited data

How the results depend on the processing

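No probe set passed the test under the alternatives that were fitted across all probe sets, with the lowest limma adjusted p of each from 0.274, with each array as a sample, to 0.99998. The mean of all probe sets of a gene gave values only, with no test. A random block for the number in the titles also gave 0. No paired analysis was possible because the labels give no unit shared by a KO and a Het sample. The number of members higher without overlap ran from 10 to 18 when 1 array was left out, with 18 without KO replicate 3 (62.1% of members, beside 17.7% of all probe sets kept), and the share of all probe sets was 10.7% to 12.9% for the other arrays. The number lower without overlap ran from 1 to 2, with 2 without KO replicate 2, without KO replicate 3 or without Het replicate 1, beside 12.1% to 18.8% of all probe sets kept, and it was 0 with the mean of all probe sets of a gene. The median difference ran from 0.30 to 0.64 when 1 array was left out, and it was 0.26 over 21 members with the dimmest 60% of probe sets left out. Chosen after seeing the data, leaving out KO replicate 1 and Het replicate 1 together gave a median of 0.27. In that case 12 members lay higher without overlap, beside 19.3% of all probe sets kept, and 2 lay lower, beside 19.8%. Of 308 values of the 21 members named by the rule and above the filter, 3 changed sign, all of Lox, at -0.084 with the mean of all probe sets, -0.016 without KO replicate 2 and -0.041 without Het replicate 1, and its values without 1 array ran from -0.041 to 0.17. The other 20 kept their direction. With the mean of all probe sets of a gene, Col1a1 was at 0.59. The cause of these shifts was not tested. Depth does not apply to arrays, and background for each probe set is not known, so dim members carry the least information.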
